A study of Mus musculus with 6 samples.

Results

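Mucins are heavily glycosylated proteins that coat the gut lining, and 4 genes of this barrier were followed here in mouse colon: Muc2, Fcgbp, Bcas1 and Muc1. They were chosen by gene symbol and hold 6 of the 2033 rows of the deposited count table, since Muc2 is listed as 3 adjacent rows. The table holds 6 libraries, 3 of control mice and 3 of mice exposed long-term to PFOA (perfluorooctanoic acid), a fluorinated surfactant that persists in the body. The labels name colon as the tissue of every library and 6 mice per group, and give no strain, genotype, age, sex, dose, route, duration or part of the colon. They do not say how the mice were divided among libraries or whether replicates are separate animals, so p-values measure only the spread between these libraries, which may be technical.

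Goblet cells store mucins in granules and release them onto the surface, where Muc2 polymers expand into the gel that keeps bacteria away from the colon epithelium. Fcgbp, the IgG Fc-binding protein, is secreted with Muc2 and is among the most abundant non-mucin proteins of that gel. Muc1 is different in kind: it spans the cell membrane, and its sugar-coated outer part lines the cell surface. Bcas1, named for a gene amplified in breast carcinoma, is also known as a marker of oligodendrocytes and was taken here with the goblet cell genes.

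The table lists only genes that differ between control and PFOA, which sets how each test can be read. Mean counts were higher in PFOA for 1035 rows and lower for 998, with no row between log2 ratios of -1.08 and 0.92. All 1608 rows with enough counts for edgeR's quasi-likelihood test passed an adjusted p of 0.05. Of these, 50.0% were called higher and 50.0% lower in PFOA, and 98.0% had groups that did not overlap. A call for a mucus gene is therefore no evidence of an effect of its own, and a gene with no row is not shown to be unchanged. The listed counts summed to between 1771120 and 2269892 per library, which is not the sequencing depth. Levels are given in CPM, listed counts scaled to a common total with TMM factors. In bulk tissue, fewer goblet cells and less RNA per goblet cell cannot be told apart. A pair of libraries stood apart for the genes described here: PFOA replicate 1, whose Muc2 lay near the control libraries, and control replicate 1, which had the lowest Muc2 and Fcgbp of its group.

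The sequences before the transcription starts are shown because Muc2 and Muc1 moved in opposite directions, and because the Fcgbp row merges that gene with its neighbour 9530053A07Rik, a close copy. The 250 bases before each RefSeq start are printed (build GRCm38.p6), with TTTAT or its reverse complement ATAAA, the core bound by Cdx factors, in capitals. RefSeq entries were matched for 3 of the 4 genes, not for Bcas1.
Muc2, chr7:141690090-141690339, plus strand: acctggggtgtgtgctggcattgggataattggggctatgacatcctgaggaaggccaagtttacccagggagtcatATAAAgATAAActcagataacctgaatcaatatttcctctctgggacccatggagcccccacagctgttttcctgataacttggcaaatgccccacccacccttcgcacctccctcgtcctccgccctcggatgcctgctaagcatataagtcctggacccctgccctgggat
Muc1, chr3:89228806-89229055, plus strand: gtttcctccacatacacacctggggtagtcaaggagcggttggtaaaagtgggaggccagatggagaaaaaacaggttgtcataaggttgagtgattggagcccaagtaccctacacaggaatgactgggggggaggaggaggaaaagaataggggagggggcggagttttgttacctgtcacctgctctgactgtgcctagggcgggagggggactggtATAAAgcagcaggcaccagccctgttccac
Fcgbp, chr7:28070986-28071235, plus strand: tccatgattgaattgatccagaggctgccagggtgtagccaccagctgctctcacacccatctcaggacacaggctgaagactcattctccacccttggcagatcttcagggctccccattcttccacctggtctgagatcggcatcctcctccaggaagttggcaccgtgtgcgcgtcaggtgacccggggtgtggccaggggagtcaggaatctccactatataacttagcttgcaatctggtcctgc
9530053A07Rik, chr7:28129216-28129465, plus strand: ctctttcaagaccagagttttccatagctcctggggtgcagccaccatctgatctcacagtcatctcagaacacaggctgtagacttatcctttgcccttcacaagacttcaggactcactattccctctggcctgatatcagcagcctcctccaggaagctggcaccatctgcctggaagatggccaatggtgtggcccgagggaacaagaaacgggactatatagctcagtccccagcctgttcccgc

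Searched on both strands, the Cdx core was present 2 times before Muc2, starting 173 and 167 bases before the start, and 1 time before Muc1, starting 30 bases before it. The Muc1 match and the first Muc2 match overlap a TATA-type motif (TATAA). Neither Fcgbp nor 9530053A07Rik had a match. The core occurs in 37.3% of 32851 RefSeq windows of the same length, and the forkhead motif TGTTTAC, found in 3.2% of them, was in none of these 4 windows. These matches describe letters only. The windows of Fcgbp and 9530053A07Rik were 68.9% identical when aligned end to end.

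Muc2 was about 3-fold higher in PFOA as a group, while Fcgbp, Bcas1 and Muc1 were lower, by 2.29-fold, 3.40-fold and 8.45-fold in mean CPM. The counts of the gel-forming mucin and of its secreted partner therefore parted in direction. Muc2 held a large part of the table, and its 3 rows ranked 1, 4 and 7 by total counts. Fcgbp ranked 3, Bcas1 119 and Muc1 778 of 2033.

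Muc2, the gel-forming mucin, lies on the plus strand of chromosome 7 from 141690340 to 141754693 (mm10). Summed over its 3 rows it had 91180, 160708 and 165793 counts in control replicates 1, 2 and 3, and 159990, 486840 and 616822 in PFOA replicates 1, 2 and 3. The sum in PFOA replicate 1 lay between the control libraries before scaling, and PFOA replicates 2 and 3 were above every control library. After scaling, the control libraries held 44480, 77990 and 75320 CPM and the PFOA libraries 86910, 225400 and 287000 CPM, so that the groups did not overlap but PFOA replicate 1 stood close to control replicate 2. The means were 65930 ± 18600 CPM in control and 199800 ± 102000 CPM in PFOA (SD, n = 3 per group), a 3.03-fold difference. The log2 fold change was 1.60 ± 0.53 (SE; edgeR adjusted p = 0.0184). Leaving out control replicate 1 gave 1.27 and ended the call (adjusted p by edgeR 0.0756), as did leaving out control replicate 3 (1.61; adjusted p by edgeR 0.0599). With PFOA replicate 1 left out the value was 1.93 (adjusted p by edgeR 0.00156).

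Of all listed counts, Muc2 alone made up 5.15%, 8.05% and 7.69% (control) and 7.34%, 22.8% and 27.2% (PFOA). A gene this abundant enters the scaling of every other row. With totals and TMM factors computed without the Muc2 rows, the log2 fold changes were 1.55 for Muc2, -1.22 for Fcgbp and -3.12 for Muc1.

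**Figure D1:**
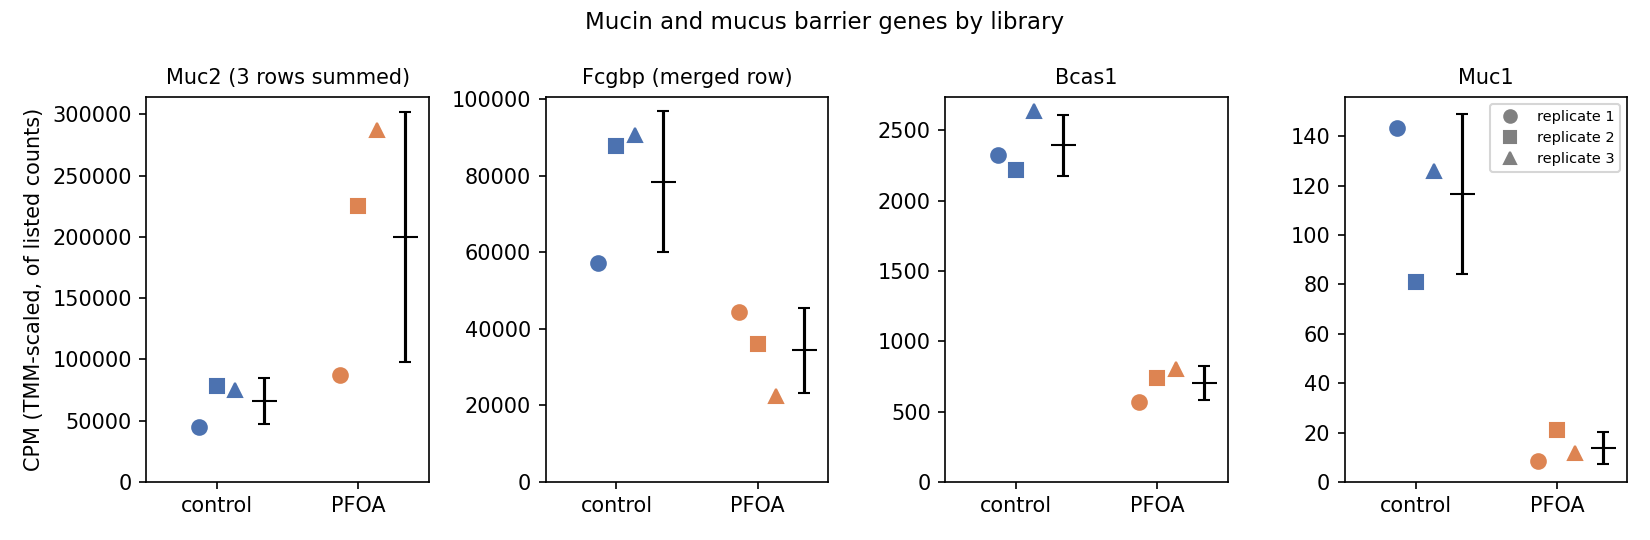
CPM (TMM-scaled, relative to listed counts) of Muc2, Fcgbp, Bcas1 and Muc1 in each library, with circles, squares and triangles for replicates 1, 2 and 3 and black marks for the group mean with SD (n = 3). Muc2 is higher in PFOA replicates 2 and 3 than in the 4 other libraries, and the other 3 genes are lower in every PFOA library than in any control library.

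The 3 Muc2 rows follow each other along the gene. Row 1 spans 141690340 to 141699087 and begins at the annotated start, row 2 spans 141699184 to 141704611, and row 3 spans 141744612 to 141754693 and ends at the annotated end. Rows 1 and 2 are 96 bases apart. Between rows 2 and 3 lie 40000 bases in which GENCODE M21 has 0 exons, inside a gene whose protein is known for a long central repeat rich in proline, threonine and serine. No row covers that stretch, so the counts describe the gene on either side of it.

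All 3 rows were higher in PFOA by nearly the same factor. Row 1 had 35587, 64754 and 62192 counts (control) and 64916, 202888 and 237983 (PFOA; log2 fold change 1.65 ± 0.50, SE, 3 libraries per group; edgeR adjusted p = 0.0132). For row 2 the counts were 11450, 19973 and 24125 in control and 18694, 62439 and 83339 in PFOA (1.58 ± 0.52; edgeR adjusted p = 0.0179). Row 2 was the single row whose groups overlapped in CPM, with PFOA replicate 1 at 10020 CPM and control replicate 3 at 10940 CPM. Row 3 had 44143, 75981 and 79476 counts (control) and 76380, 221513 and 295500 (PFOA; 1.59 ± 0.51; edgeR adjusted p = 0.0161). Without control replicate 1 the calls of rows 1, 2 and 3 ended at 1.31, 1.22 and 1.25 (adjusted p by edgeR 0.0617, 0.0828 and 0.073). Without control replicate 3 those of rows 1 and 3 ended (adjusted p by edgeR 0.0512 and 0.0551), and without PFOA replicate 3 that of row 2 (1.18; adjusted p by edgeR 0.0544).

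The pieces kept nearly the same proportions in every library. Row 1 held 37.5% to 40.3% of the Muc2 counts in control and 38.6% to 41.7% in PFOA. Row 2 held 12.4% to 14.6% in control and 11.7% to 13.5% in PFOA, and row 3 held 47.3% to 48.4% and 45.5% to 47.9%. The group means differed by 1.33, -0.51 and -0.83 percentage points in rows 1, 2 and 3, PFOA minus control (two-sided exact permutation p = 0.4, 0.7 and 0.4; adjusted p = 0.6, 0.7 and 0.6 over 3 rows; the smallest possible p is 0.1). Per kilobase of row length, row 3 was the highest and row 2 the lowest in each of the 6 libraries. In control replicate 1, for example, rows 1, 2 and 3 stood at 5793, 3639 and 7355 CPM per kb, and in PFOA replicate 3 at 37060, 25350 and 47130 CPM per kb.

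**Figure D2:**
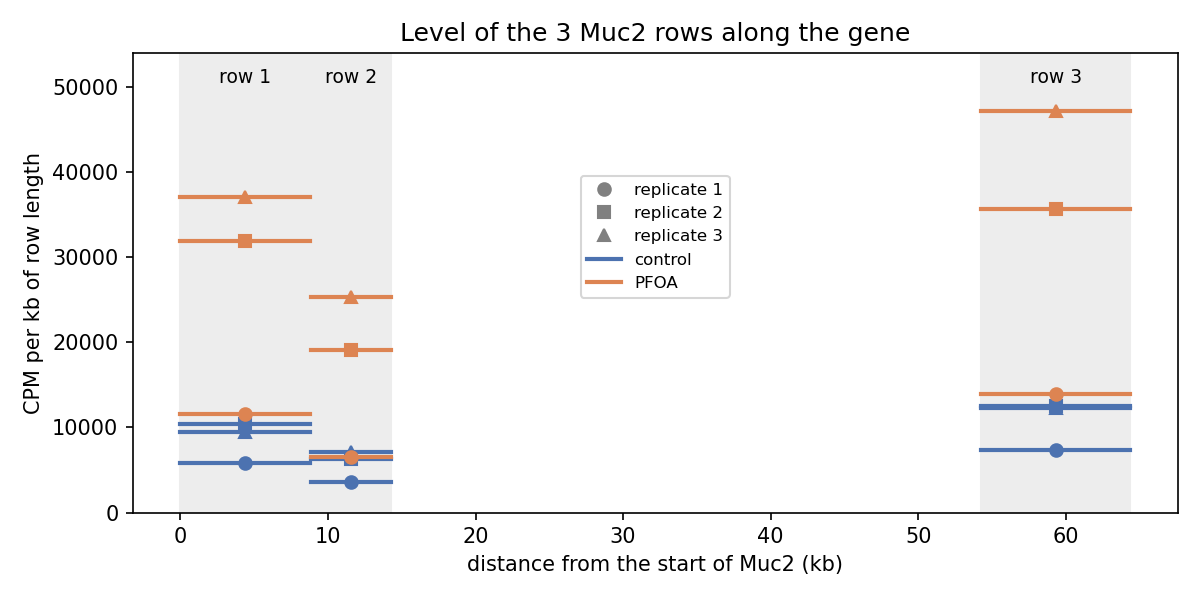
CPM per kb of the 3 Muc2 rows, drawn over the stretch of the gene that each row covers (grey bands; distance from the start of Muc2 in kb), for 3 control and 3 PFOA libraries. In each row PFOA replicates 2 and 3 lie above the other 4 libraries, and the 40.0 kb between rows 2 and 3 hold no row.

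Fcgbp is counted in 1 row on the plus strand of chromosome 7 from 28071236 to 28164811 (mm10), which takes in the annotated exons of Fcgbp (10497 bases) and of 9530053A07Rik (11843 bases). Their 2 full-length transcripts, of 7928 and 7922 bases, were 83.9% identical, and 8.55% of the 50-base windows of the Fcgbp transcript occur exactly in the other (2.13% of 100-base windows). Values for Fcgbp are therefore those of the pair. The row had 117294, 181137 and 199769 counts (control) and 83053, 76351 and 48341 (PFOA). Every PFOA library was below every control library, with PFOA replicate 3 lowest. The means were 78470 ± 18500 CPM in control and 34340 ± 11100 CPM in PFOA (SD, n = 3 per group), with a log2 fold change of -1.19 ± 0.39 (SE; edgeR adjusted p = 0.0173). Leaving out PFOA replicate 3 gave -0.95 and ended the call (adjusted p by edgeR 0.0517).

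Bcas1 lies on the minus strand of chromosome 2 from 170346991 to 170429063 (mm10). It had 4770, 4578 and 5816 counts (control) and 1055, 1576 and 1722 (PFOA). Every PFOA library was below every control library, with a small spread in each group: 2393 ± 219 CPM in control and 703.6 ± 123 CPM in PFOA (SD, n = 3 per group). The log2 fold change was -1.77 ± 0.22 (SE; edgeR adjusted p = 4.79e-04), and it stayed between -1.91 and -1.66 with each library left out in turn.

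Muc1, the membrane mucin, lies on the plus strand of chromosome 3 from 89229057 to 89233381 (mm10) and was the least abundant of the 4 genes. It had 294, 167 and 278 counts (control) and 16, 45 and 25 (PFOA). The highest PFOA library (21.2 CPM) was well below the lowest control library (80.8 CPM). Its log2 fold change of -3.07 ± 0.42 (SE, 3 libraries per group; edgeR adjusted p = 6.37e-04) was the largest of the 4, and 335th by size among the 1608 tested rows. Among the other members, Bcas1 ranked 800, the Muc2 rows between 876 and 945 and Fcgbp 1345. The median over tested rows was 1.71 for those higher and -1.80 for those lower in PFOA. Muc2 and Bcas1 lay close to these values, while Fcgbp changed less than most tested rows.

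Levels were compared between genes per kb of row length. In control, Muc2 stood at 8844 ± 2500 CPM per kb, Fcgbp at 3512 ± 828, Bcas1 at 232.9 ± 21.3 and Muc1 at 49.8 ± 13.8 (SD, n = 3). No ranges of neighbouring genes overlapped. In PFOA the order was the same, also with no overlap, at 26800 ± 13700, 1537 ± 496, 68.5 ± 12 and 5.89 ± 2.80 CPM per kb. The row lengths matter here. If all reads of the merged row came from Fcgbp alone, Fcgbp would stand at 7475 ± 1760 CPM per kb in control. In PFOA it would stand at 3271 ± 1050. The control ranges of Fcgbp and Muc2 would then overlap between libraries. Within each control library Fcgbp would still be lower, at 5447, 8350 and 8628 against 5966, 10460 and 10100 CPM per kb for Muc2. The Bcas1 row (10275 bases) is longer than its M21 exons (3775 bases), over which it would stand at 633.8 ± 57.9 CPM per kb in control.

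Ratios of counts within a library do not depend on how libraries are scaled. There were 0.777, 0.887 and 0.830 Muc2 counts per Fcgbp count in the 3 control libraries, a narrow range although control replicate 1 was low in each gene. In PFOA replicates 1, 2 and 3 the ratio was 1.93, 6.38 and 12.8. Each PFOA library was thus above all control libraries, PFOA replicate 1 included, and the PFOA libraries spread much more widely (SD of the log2 ratio 0.10 in control and 1.38 in PFOA). The geometric mean ratio was 6.49-fold higher in PFOA, a log2 difference of 2.70 (two-sided exact permutation p = 0.1, the smallest possible with 3 against 3; adjusted p = 0.12 over 6 ratios). Without PFOA replicate 1 the log2 difference was 3.44 and without PFOA replicate 3 it was 2.08. Its direction follows from the selection of rows, since Muc2 was listed as higher and Fcgbp as lower.

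The other ratios set Muc1 and Bcas1 against Muc2, Fcgbp and each other. The Muc1-to-Muc2 ratio was 24.7-fold and the Bcas1-to-Muc2 ratio 9.57-fold lower in PFOA. There were 16.2, 27.4 and 20.9 Bcas1 counts per Muc1 count in control and 65.9, 35.0 and 68.9 in PFOA, 2.58-fold more, and the Muc1-to-Fcgbp ratio was 3.8-fold lower. For each of these 4 ratios the groups did not overlap (two-sided exact permutation p = 0.1; adjusted p = 0.12). For the ratios to Muc2 the direction again follows from the selection of rows, since Muc1 and Bcas1 were listed as lower and Muc2 as higher, so their tests carry no evidence of their own. The Bcas1-to-Fcgbp ratio overlapped, at 0.0253 to 0.0407 in control and 0.0127 to 0.0356 in PFOA (log2 difference -0.56; two-sided exact permutation p = 0.3; adjusted p = 0.3).

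**Figure D3:**
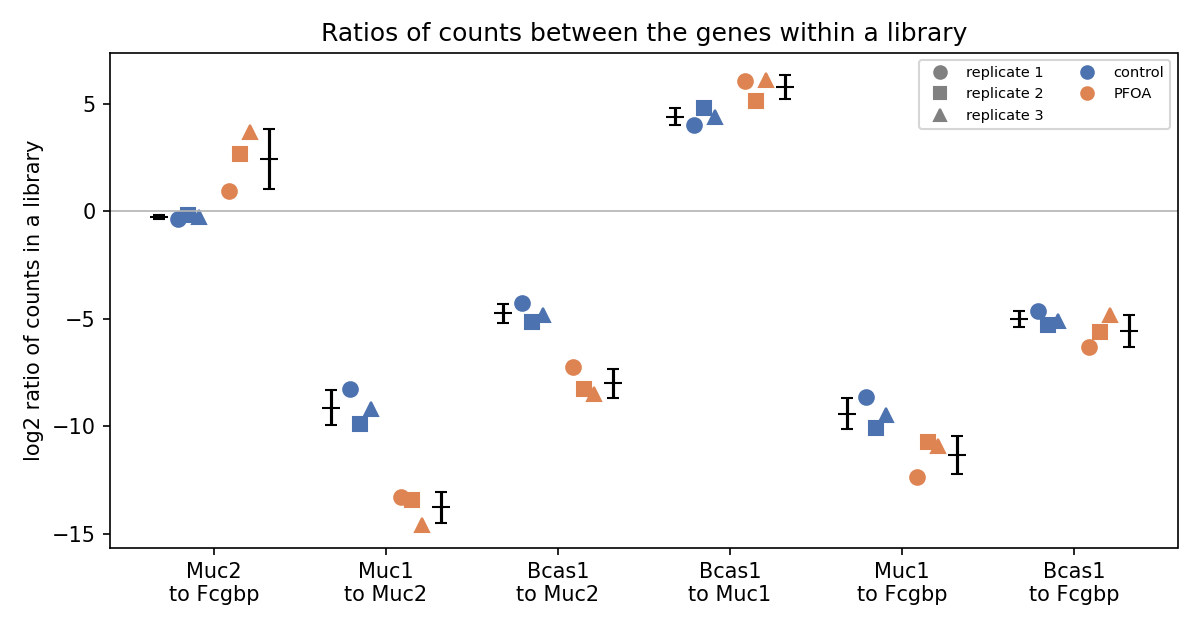
Log2 ratios of counts between pairs of the 4 genes within each library (Muc2 as the sum of its rows), with points for libraries and black marks for group means with SD (n = 3). The Muc2-to-Fcgbp ratio lies in a narrow band in control and between 1.93 and 12.8 on the linear scale in PFOA, and the Bcas1-to-Fcgbp ratio overlaps between groups.

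Other genes of the mucus barrier were read from 8 lists by role, in which 41 of 160 entries had a row. Over 41 distinct rows tested, 18 were higher and 23 lower in PFOA, each of them called, as were all rows tested (largest adjusted p by edgeR among them 0.0408). This split, in which the 3 Muc2 rows of the same gene each count, lies near the 50.0% in each direction over the table. The median log2 fold change was -1.15, beside -0.03 over all tested rows. With no rows near 0, a median here mainly follows which direction holds more rows, and no shift of the mucus genes is read from it; the same holds for the medians of single lists. Of the 41 rows, 39 had groups that did not overlap, as did 98.0% of all tested rows, so nothing about mucus genes is read from this count. Leaving out PFOA replicate 1, an alternative chosen after seeing the data, kept every one of these counts per list except that of gel-forming mucins, which went from 3 to 4 rows higher as Muc5b became testable.

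Of the mucins, 2 of 5 gel-forming or secreted genes (Muc2 and Muc5b) and 2 of 12 membrane genes had a row. Muc5b, a gel-forming mucin best known from airways and salivary glands, had 0, 1 and 0 counts (control) and 2, 25 and 34 (PFOA). Pooled, that is a PFOA-to-control ratio of 62.9 with an exact (Clopper-Pearson) 95% interval from 10.9 to 2520. The interval covers counting error only and not the spread between libraries. Since the table lists only rows that differ between the groups, it carries no evidence of its own. As with Muc2, PFOA replicate 1 was the lowest of its group. Muc3a, a membrane mucin of the intestinal brush border, had 1220, 2642 and 1731 counts (control) and 3908, 7603 and 7318 (PFOA; log2 fold change 1.77 ± 0.35, SE, 3 libraries per group; edgeR adjusted p = 0.00244). The listed membrane mucins, Muc1 and Muc3a, thus lay on opposite sides.

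Of 20 genes for proteins found in the mucus beside the mucins, 6 had a row. Of these, 5 were lower and 1 was higher in PFOA (median log2 fold change -1.29), beside 50.0% of all tested rows in each direction. The genes without a row are not shown to be unchanged, so no general fall of mucus proteins is read from this count. Clca1, a secreted metalloprotease that acts on the mucus gel, had 33193, 112545 and 151823 counts (control) and 10787, 25045 and 17450 (PFOA; 5.43-fold lower). Control replicate 1 was the lowest control library for Clca1, as for Muc2 and Fcgbp. Zg16, a lectin that binds bacteria in the mucus, was 2.63-fold lower, with 40771, 53192 and 52047 counts (control) and 16492, 17900 and 19515 (PFOA). Tff3, the trefoil peptide of goblet cells, was 2.06-fold lower, from 10929 to 12147 counts in control and from 4084 to 6870 in PFOA. On the log2 scale these changes were -2.44 ± 0.57 for Clca1, -1.39 ± 0.25 for Zg16 and -1.04 ± 0.29 for Tff3 (SE).

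Tgm3, a transglutaminase that cross-links proteins, went from 7005, 13944 and 16031 counts (control) to 8, 32 and 44 (PFOA), 437-fold lower (log2 fold change -8.76 ± 0.69, SE, 3 libraries per group; edgeR adjusted p = 8.41e-05). Dmbt1, a secreted scavenger receptor glycoprotein, was the exception of the list at 4.46-fold higher, with 58039, 36744 and 49126 counts (control) and 288705, 158813 and 161681 (PFOA); its log2 fold change was 2.16 ± 0.43 (SE). Unlike for Muc2, PFOA replicate 1 was the highest library for Dmbt1.

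Of 36 goblet cell genes of secretion and other functions, 6 had a row. They were split, with 4 rows higher and 2 lower (median log2 fold change 1.03), beside 50.0% of all tested rows in each direction. Beside Bcas1, Capn8, a calpain of stomach mucus cells, was lower, with 1699, 1515 and 1703 counts (control) and 282, 914 and 949 (PFOA). Guca2a, which encodes the peptide guanylin, Galnt12, which starts mucin sugar chains, Slc12a8, a solute carrier, and a row that merges Smim14 with Ugdh and Gm43552 were between 2.01-fold and 2.23-fold higher. Galnt12 carries the gene type of a processed pseudogene in the table. The call of Guca2a was lost without control replicate 3 (edgeR adjusted p = 0.0604) and that of Slc12a8 without control replicate 1 or 3 (edgeR adjusted p = 0.0727 and 0.0826).

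The 3 listed transcription factors of goblet cell and intestinal identity went both ways. Spdef, an Ets factor needed for goblet cell maturation, had 1142, 1649 and 1412 counts (control) and 2061, 7504 and 5993 (PFOA; 3.73-fold higher). PFOA replicate 1 was again the lowest of its group, while PFOA replicate 2 was the highest. Cdx2, the homeobox factor of intestinal identity, was 4.54-fold higher, with 619, 1313 and 868 counts (control) and 4617, 3549 and 4066 (PFOA). Foxa2, a forkhead factor of endodermal epithelia, was 4.43-fold lower, with 832, 585 and 658 counts (control) and 159, 132 and 162 (PFOA). Their log2 fold changes were 1.90 ± 0.42, 2.18 ± 0.33 and -2.15 ± 0.25 (SE) for Spdef, Cdx2 and Foxa2.

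The list of mucin O-glycosylation, whose enzymes and carriers also serve other sugar chains, had 6 rows higher and 7 lower of 13 tested (median log2 fold change -1.03, range -5.67 to 3.37). That is near the 50.0% in each direction over all tested rows, so nothing about the list is read from it. B3gnt6, the enzyme of core 3 chains, had 11, 11 and 10 counts (control) and 79, 96 and 131 (PFOA). Gcnt4, a branching enzyme of core 2 chains, went from 41, 44 and 57 counts to 286, 537 and 623. On the other side, B3gnt7, which extends lactosamine chains, went from 14914, 10137 and 11126 counts (control) to 115, 314 and 274 (PFOA), 51.1-fold lower. B3gnt5, counted among the lower rows of this list but known for acting on glycolipids, was 7.73-fold lower, B4galnt3, which adds N-acetylgalactosamine, 5.0-fold lower, and the fucosyltransferase Fut4 3.75-fold lower. Log2 fold changes were 3.28 ± 0.34 for B3gnt6, 3.37 ± 0.32 for Gcnt4 and -5.67 ± 0.43 for B3gnt7 (SE).

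Of 16 ion, bicarbonate and water transport genes, which set the fluid in which mucus unfolds, 6 had a row. Of these, 5 were lower and 1 was higher (median log2 fold change -2.48), beside 50.0% of all tested rows in each direction. The water channel Aqp4 was 23.5-fold lower, the bestrophin channel Best2 7.90-fold lower, the calcium-activated chloride channel Ano1 6.77-fold lower and the carbonic anhydrase Car4 2.56-fold lower. The chloride-bicarbonate exchanger Slc26a3 was 4.62-fold lower, where PFOA replicate 1 had 18783 counts and PFOA replicates 2 and 3 had 6770 and 7256 (log2 fold change -2.21, or -3.00 without PFOA replicate 1). Car1, another carbonic anhydrase, was 6.80-fold higher, where PFOA replicate 1 had 125029 counts and the others of its group 39638 and 50026 (2.77, or 1.94 without PFOA replicate 1). Of the proteases and inhibitors, the metalloprotease Mep1a was 2.22-fold higher, and the protease inhibitors Spink1 and Wfdc2 were 56.9-fold and 59.0-fold lower.

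**Figure D4:**
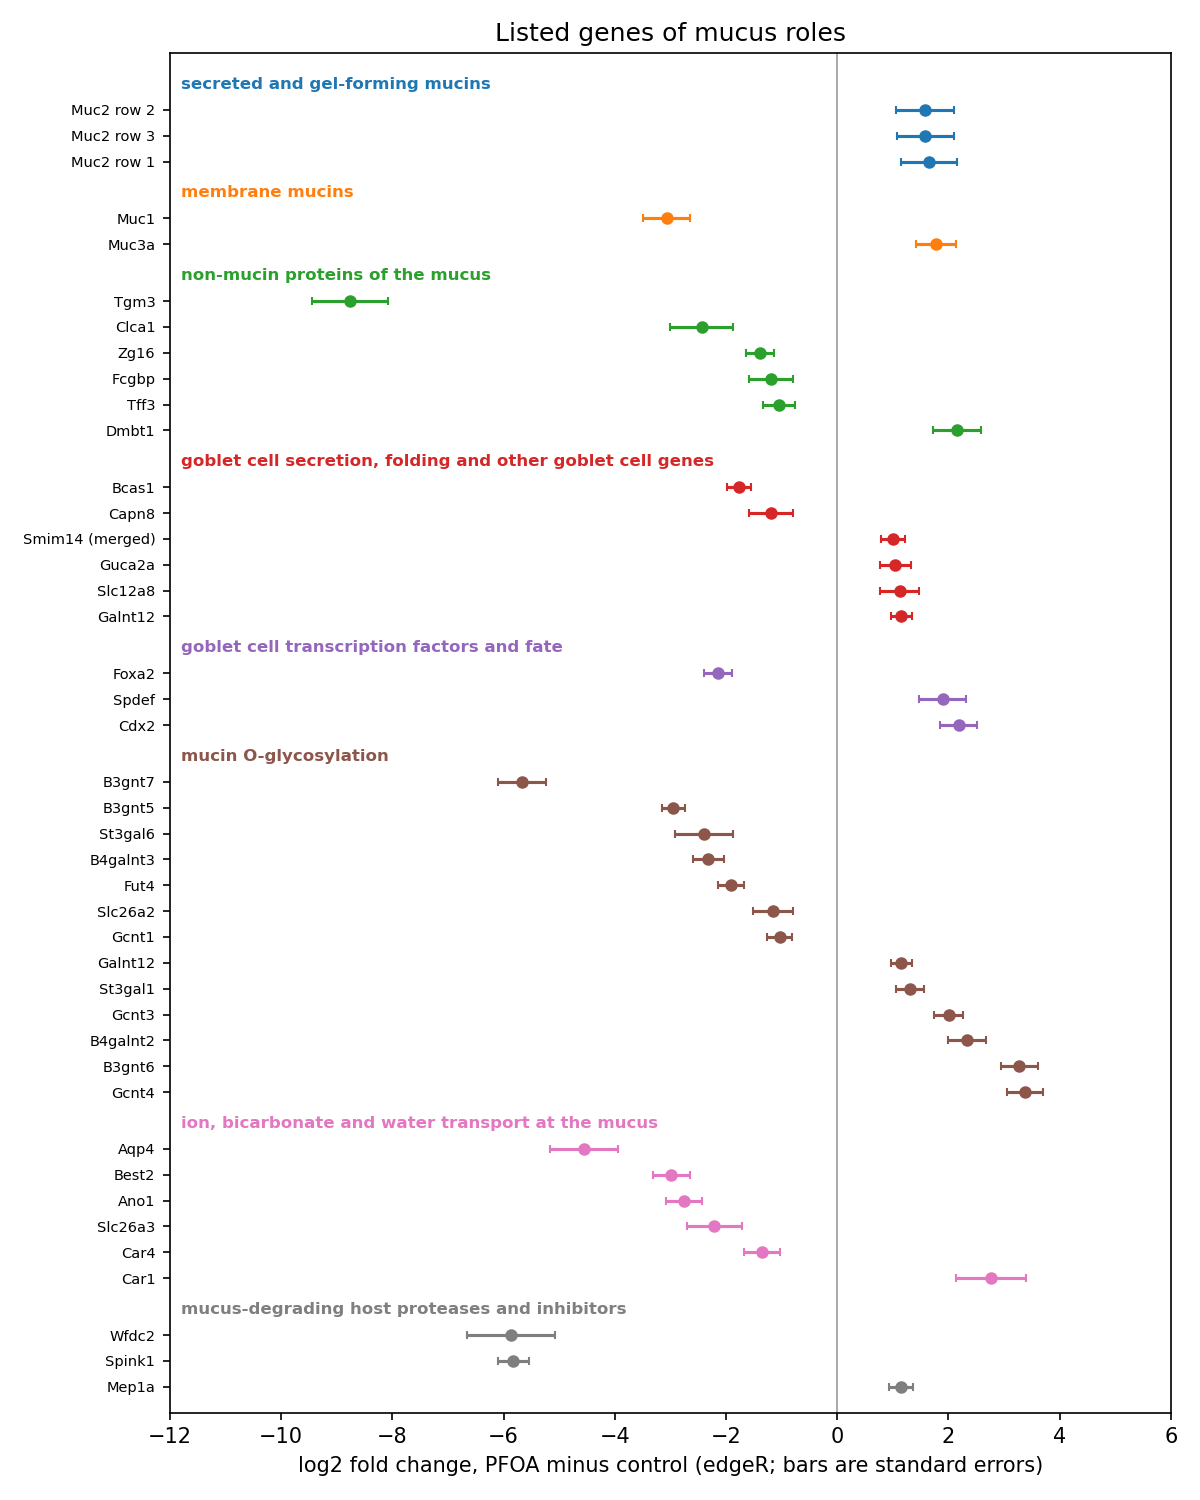
Log2 fold changes (PFOA minus control; bars are SE, n = 3 per group) of the tested rows in 8 lists of mucus genes, grouped and coloured by role; Galnt12 stands in 2 lists. The Muc2 rows lie between 1.58 and 1.65, while 5 of the 6 non-mucin mucus proteins with a row lie at -1.04 or below. Of all tested rows, 50.0% were lower.

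The listed goblet cell markers went both ways. Of 13 markers, 7 had a row, which gave 4 rows higher (3 of Muc2, and Spdef) and 5 lower (Fcgbp, Clca1, Zg16, Tff3 and Bcas1). The 3 Muc2 rows belong to the same gene and are not independent. By gene, only Muc2 and Spdef were higher, against 5 genes lower. All rows tested were called, with 50.0% in each direction, and markers without a row are not shown to be unchanged. Nothing about goblet cells is therefore read from this split. Their summed level ranged from 146400 to 266400 CPM in control and from 150200 to 333100 CPM in PFOA, so that the groups overlapped. Muc2 and Fcgbp, which moved in opposite directions, were the largest parts of that sum. None of the 7 markers with a row was at 0 in any library.

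Markers of other cells moved with the groups too, and their part in the mucus gene results was not tested. All rows tested were called, with 50.0% in each direction. No gain or loss of a cell type is therefore read from the counts of markers below. Of 14 small intestinal enterocyte markers, 6 had a row, 5 of them higher in PFOA, and their sum ranged from 688.4 to 1775 CPM in control and from 5623 to 11390 CPM in PFOA. The highest sum was that of PFOA replicate 1, the PFOA library with the least Muc2. Its Apob stood at 4464 CPM against 857.2 and 846.3 CPM in PFOA replicates 2 and 3, and its Fabp2 at 4979 CPM against 2238 and 2054 CPM. Rbp2 was also highest there, at 77.2 CPM against 32.5 and 36.9 CPM. Sis went the other way, at 21.4 CPM against 111.6 and 181.9 CPM. So did Slc10a2, at 1342 CPM against 1951 and 1802 CPM. Alpi, at 506 CPM, lay between the other PFOA libraries (489.1 and 702.6 CPM). The markers of this list thus shared no direction in PFOA replicate 1. Without PFOA replicate 1 the log2 fold change of Apob went from 2.76 to 1.46 and that of Fabp2 from 3.88 to 3.32. Colonocyte markers had 3 rows of 11 (28560 to 45530 CPM in control, 24730 to 79120 CPM in PFOA), with the highest sum again in PFOA replicate 1, where Car1 alone stood at 67020 CPM against 18660 and 23340 CPM. Car1 was higher in PFOA, while Car4 and Slc26a3 were lower. Enteroendocrine markers had 5 rows of 10, with 2 higher (Nts and Sst) and 3 lower (Gcg, Pyy and Insl5) in PFOA. Their sum ranged from 2892 to 3290 CPM in control and from 501.7 to 986.7 CPM in PFOA. Pyy alone had a mean of 1827 CPM in control and 205 CPM in PFOA, and Nts was at 0 in the control libraries. Cnn1 was the only listed one of 7 smooth muscle markers and stood at 5922, 2553 and 3475 CPM in control and 1478, 1982 and 2094 CPM in PFOA. Control replicate 1, lowest for Muc2, Fcgbp and Clca1, was thus the highest library for this muscle gene.

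Of the lists of blood and immune cells, T and natural killer cells had 6 rows of 12 (38.7 to 65.3 CPM in control, 121.8 to 313.6 CPM in PFOA), and red blood cells all 5 markers in 4 rows (562.6 to 1487 against 123.3 to 211.8 CPM). Ly6g alone of 9 myeloid markers was listed (571.4 to 967.3 against 5.60 to 30.0 CPM), and adipocyte markers had 4 of 6 (9.52 to 37.7 against 69.2 to 520.2 CPM), with Adipoq and Plin1 at 0 in control replicate 3 and PFOA replicate 2. Squamous markers had 3 rows of 11 (9.52 to 22.7 against 13.7 to 492.6 CPM), with Krt13 and Krt16 at 0 in all 3 PFOA libraries. The upper PFOA value is Sprr1a in PFOA replicate 1, and the other PFOA libraries, at 13.7 and 21.9 CPM, lay inside the control range. The log2 fold change of Sprr1a was 4.0 with all libraries and 0.67 without PFOA replicate 1 (adjusted p by edgeR 0.262), and its call also ended without control replicate 1 or 3 (adjusted p by edgeR 0.0848 and 0.0725). Mmp7 was the listed one of 7 Paneth markers (0.45 to 2.42 against 18.2 to 250.1 CPM), and Gfap of 9 neuron and glia markers (16.0 to 18.6 against 49.9 to 60.7 CPM). The gastric, stem and cycling, tuft, fibroblast, and B and plasma cell lists had 0 rows.

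The rows whose levels followed each gene most closely were found by the root mean square difference of log2 CPM over the 6 libraries, each row centred on its own mean, among 858 named protein-coding rows of at least 10 CPM. For Muc2 these were Chrnb4, a nicotinic receptor subunit (0.08), Sox6, a transcription factor (0.23), and Syt6, a synaptotagmin (0.23). Chrnb4 had 49, 100 and 100 counts (control) and 103, 286 and 345 (PFOA), so that PFOA replicate 1 lay beside control replicates 2 and 3 as it did for Muc2. Such likeness follows from how these rows were picked and carries no evidence of its own. The calls of Chrnb4 and Syt6 ended without control replicate 1 (adjusted p by edgeR 0.0523 and 0.0606), as that of Muc2 did, while Sox6 kept its call (0.0273). Without control replicate 3 the call of Muc2 ended, but Chrnb4, Sox6 and Syt6 kept theirs (adjusted p by edgeR 0.038, 0.0201 and 0.0464).

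For Fcgbp the nearest rows were Slc16a12, a solute carrier (0.19), Saa1, a serum amyloid A protein (0.20), and Slc26a2, the sulfate transporter (0.20). Slc26a2 had 31601, 44193 and 46068 counts (control) and 24214, 14669 and 13198 (PFOA), and its call was lost without PFOA replicate 2 or 3 (edgeR adjusted p = 0.0657 and 0.0532). For Bcas1 they were Fam180a (0.13), the mitochondrial creatine kinase Ckmt1 (0.13) and Scnn1a, a subunit of the epithelial sodium channel (0.15). For Muc1 they were the hepcidin gene Hamp2 (0.27), the L cell hormone gene Pyy (0.30) and Gk, a glycerol kinase (0.31). Hamp2 had 57, 23 and 37 counts (control) and 0, 5 and 1 (PFOA), and leaving out PFOA replicate 2 changed its log2 value from -4.17 to -5.87.

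**Figure D5:**
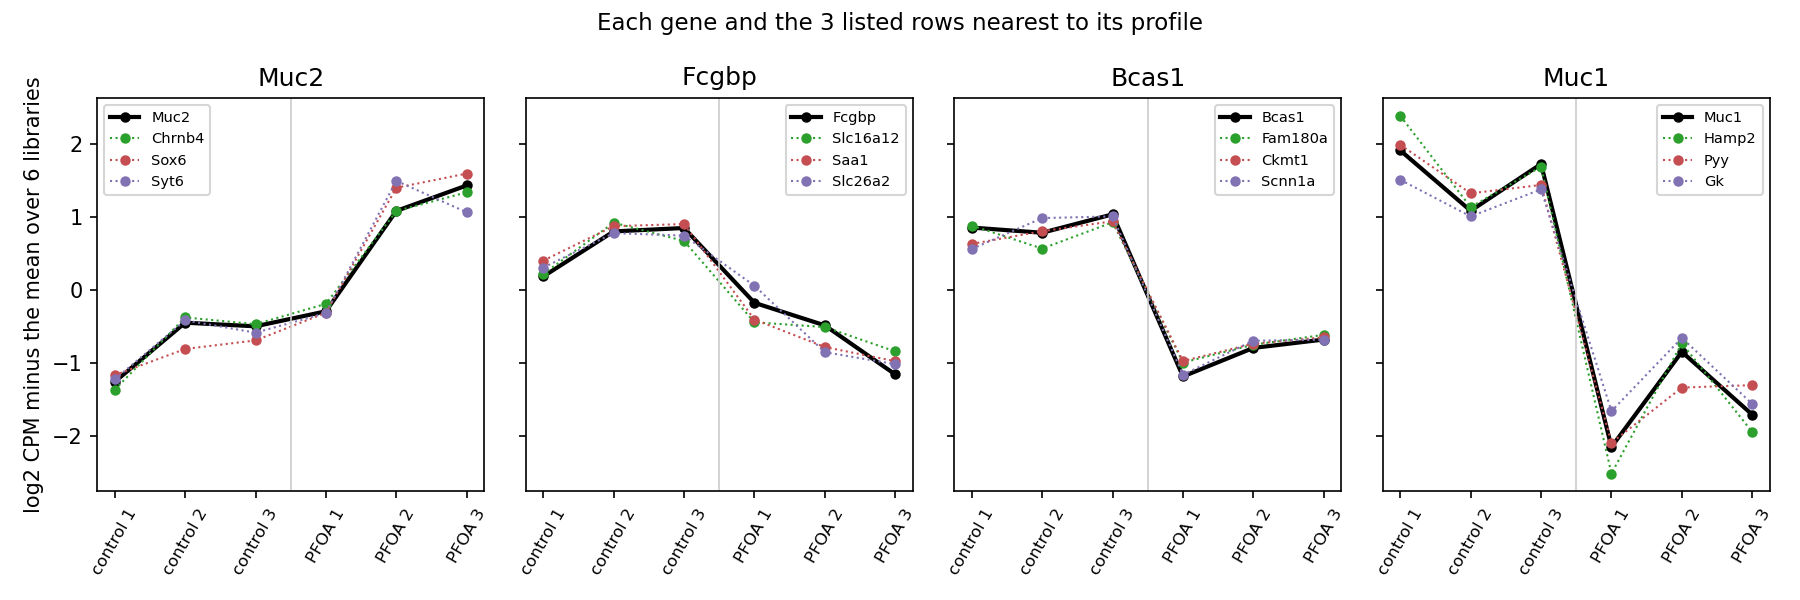
Log2 CPM of Muc2, Fcgbp, Bcas1 and Muc1 (black) and of the 3 nearest rows of each (colours) in the 6 libraries, each centred on its own mean; dotted and solid lines only join the points of a row, since replicates have no order. For Muc2 the profiles meet at PFOA replicate 1, which lies at -0.30 against 1.08 and 1.43 in PFOA replicates 2 and 3.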

How the data were processed

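RNA of 6 mouse colon libraries was counted per gene row. The authors deposited raw counts for 2033 rows, with the length of each row in bases, another per-row value; per the submitters' processing notes, HISAT2, HTSeq and mm10 were used. The library kit was SMARTER, per the labels. For locus assembly, strand, multi-mapping and row selection, the method was not given in the sources used here. The tests had been planned for a table of all genes, while the table holds only rows that differ between groups. Counts were fitted on the whole table with edgeR 4.0.16 (R 4.3.3; filterByExpr, TMM, glmQLFit, glmQLFTest, two-sided), which kept 1608 rows, with Benjamini-Hochberg adjustment over them. SE is the absolute log2 fold change divided by the square root of F. Muc2 was also refitted as 1 summed row. Ratios and shares used exact permutation tests. The edgeR step was tested on simulated data. Annotation came from GENCODE M21 and promoters from RefSeq.

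The members and lists were chosen with earlier results of these data known. Named genes were the members, up to 6 genes per role list by smallest p, and the 3 nearest rows of each member. Alternatives were DESeq2 1.42.0, limma-voom (limma 3.58.1), other scalings and filters, a replicate block and each library left out.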

Additional observations from a re-analysis of the deposited data

How the results depend on the processing

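Of 208 values recomputed under an alternative, 198 were classed as the same. For log2 fold changes this means the same direction and side of the threshold, and for counts a value within 1.5 times. For ratios and shares only the direction was compared, with no test repeated. The direction of the ratios with Muc2 follows from the selection of rows, so their part of the 198 carries no evidence of its own. With each library left out in turn, the log2 fold change ranged from 1.31 to 1.98, 1.18 to 1.94 and 1.21 to 1.91 for Muc2 rows 1, 2 and 3, from 1.27 to 1.93 for their sum and from -1.51 to -0.95 for Fcgbp. Calls were lost for the 3 rows without control replicate 1 (edgeR adjusted p = 0.0617, 0.0828 and 0.073), for rows 1 and 3 without control replicate 3 (0.0512 and 0.0551) and for row 2 without PFOA replicate 3 (0.0544). The cause of these lost calls was not tested. The share of Muc2 counts in row 2 changed by -0.92 to 0.18 percentage points and reversed without control replicate 3 (0.18). Bcas1 and Muc1 kept their calls under all 14 alternatives, and under other tools, scalings and filters so did Muc2 and Fcgbp. Listed totals alone moved the median of all tested rows by -0.22 (log2). Replicate numbers did not pair the libraries: deviations of same-numbered libraries correlated at 0.11, -0.03 and 0.10, and control replicate 2 correlated best with PFOA replicate 3. With the replicate number as a block, the log2 fold changes were 1.48 for summed Muc2, -1.22 for Fcgbp, -3.11 for Muc1 and -1.78 for Bcas1, each still called, with 780 rows higher and 799 lower. Depth beyond the listed rows is unknown.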
